A study of Homo sapiens with 15 samples.

Results

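The genes described here are 10 members of the Notch signalling pathway, measured as RNA in cells with and without an edited NF1 gene. They were taken by name from a list: the receptors NOTCH1, NOTCH2 and NOTCH3, the ligands JAG1, JAG2 and DLL1, the glycosyltransferase LFNG, and the targets HES1, HEY1 and NRARP. Each symbol matched 1 Ensembl identifier among the 60721 in the count table. All 10 passed the filter on low counts, which left 17457 genes to test.

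The cells are MCF-10A, an established, non-tumorigenic human mammary epithelial line, and NF1 encodes neurofibromin, which switches RAS off. There were 5 genotypes with 3 libraries each: unmodified parental cells, cells with an empty vector, and 3 lines in which NF1 was targeted with guide RNA 1, guide RNA 2, or guides 1 and 2 together. No cells were treated, and all were grown in the same medium with horse serum, EGF, hydrocortisone, cholera toxin and insulin. The labels call the 3 libraries of a genotype biological replicates; whether a line was 1 clone or a pool of edited cells is not given in the sources used here.

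Notch receptors sit on the cell surface and are activated by Delta-like and Jagged ligands on a neighbouring cell. Ligand binding lets ADAM proteases and then gamma-secretase cut the receptor, and the freed intracellular domain joins the DNA-binding protein RBPJ in the nucleus to turn on target genes. In the mammary gland the pathway is known for its part in the choice between basal and luminal cell fates. The values below are RNA levels and do not measure receptor cleavage.

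Promoter sequence was looked at first, because RBPJ binds DNA at a core motif and HES1 is the target most often used to read the pathway. The 250 bases before the RefSeq start (GRCh38.p14) were searched on both strands for TGGGAA, the core of the RBPJ motif; the longer form GTGGGAA contains it, so each match of the longer form is also a match of the core. Sequences were found for 8 of the 10 genes, all but DLL1 and HEY1. Among these 8, HES1 held 2 matches and the other 7 held 0. The HES1 window is shown with both matches in capitals, and the JAG1 window, which holds none, is shown because JAG1 is the gene that passed the test of expression. Both are written 5′ to 3′ along the gene's own strand, HES1 on the plus strand at chr3:194135898-194136147 and JAG1 on the minus strand at chr20:10674000-10674249.
HES1: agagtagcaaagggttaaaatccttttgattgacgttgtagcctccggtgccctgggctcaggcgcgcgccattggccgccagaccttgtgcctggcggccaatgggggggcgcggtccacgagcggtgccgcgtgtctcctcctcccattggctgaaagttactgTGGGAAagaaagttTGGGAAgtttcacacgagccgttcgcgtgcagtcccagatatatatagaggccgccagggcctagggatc
JAG1: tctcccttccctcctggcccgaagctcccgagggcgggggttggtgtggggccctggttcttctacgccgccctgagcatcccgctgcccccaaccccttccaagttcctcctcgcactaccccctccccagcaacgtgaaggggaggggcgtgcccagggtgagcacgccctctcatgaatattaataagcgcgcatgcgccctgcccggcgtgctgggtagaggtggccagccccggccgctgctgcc
In HES1 the matches lie 65 to 70 and 79 to 84 bases before the start, both on the plus strand, and the one farther from the start is the longer GTGGGAA. Of 27305 windows of the same length in the table, 21.1% held at least 1 TGGGAA, 2.92% held 2 or more, and 5.46% held GTGGGAA. A match describes these letters and is not a measured binding site.

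Library totals ran from 46129559 to 78976917 counts, with a median of 55942785, so that 3 counts correspond to between 0.038 and 0.065 CPM, the deposited unit of counts scaled to the library total. NF1 itself was at 26.0 to 51.3 CPM in the 9 edited libraries and 115 to 159 CPM in the 6 unedited ones. Markers of epithelial cells did not follow the genotypes in every library. Over 6 epithelial adhesion genes (CDH1, EPCAM, GRHL2, ESRP1, ESRP2 and CLDN4) the summed level was 17.8 to 149 CPM in parental, 122 to 255 in empty-vector, 13.8 to 17.1 in guide 1, 13.5 to 349 in guide 2 and 51.3 to 66.1 in guides 1 and 2 libraries. The top of the guide 2 range is replicate 2, in which CDH1 stood at 91.4 CPM against 0.0361 and 0.0434 CPM in replicates 1 and 3; the bottom of the parental range is replicate 2, with CDH1 at 1.79 CPM against 42.9 and 37.8. GRHL2 was at no more than 0.0313 CPM in any library, and CDH1 was at 0.0191 to 0.158 CPM in the guide 1 libraries, so that this defining epithelial marker was near 0 in 5 of the 15 libraries. The 6 basal genes (KRT5, KRT14, KRT17, TP63, ITGA6 and LAMB3) summed to 1716 to 5532 CPM in parental, 4420 to 6712 in empty-vector, 1537 to 2044 in guide 1, 1768 to 9533 in guide 2 and 2392 to 2605 in guides 1 and 2 libraries. The 6 mesenchymal genes (VIM, CDH2, ZEB1, ZEB2, FN1 and TWIST1) summed to 8337 to 13777, 13353 to 15159, 14884 to 20680, 3745 to 15634 and 11277 to 11583 CPM in the same order. The 6 luminal genes (KRT8, KRT18, KRT19, ESR1, GATA3 and PGR) summed to 277 to 379 CPM over all libraries, most of it KRT8 and KRT18. GATA3 was at 15.4 to 35.3 CPM, while ESR1 reached 0.791 CPM, KRT19 0.235 CPM and PGR 0.0158 CPM. Lists of 5 genes each for other cell types were low, at 5.24 to 21 CPM for fibroblasts, 2.42 to 12.7 CPM for endothelium and 3.28 to 6.99 CPM for leukocytes, and CD3E had no count. Results on the Notch genes are therefore also given without guide 2 replicate 2, a library singled out for these marker values. A further setting, chosen after seeing the data, leaves out that library and parental replicate 2.

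In the edgeR model of all 15 libraries, JAG1 was the single gene of the 10 that passed in any comparison: it fell in guide 1 cells, from a mean of 74.7 CPM with the empty vector to 14.1 CPM. That call was lost with the replicate number as a block (edgeR adjusted p = 0.0907) and in 11 of 15 fits that left out 1 library. DLL1, JAG2, HES1, NOTCH1, NOTCH3 and LFNG also lay below all empty-vector libraries in guide 1 and double-guide cells, as 18.1% and 17.2% of all tested genes did, without passing in edgeR. On the same libraries DESeq2 called NOTCH1, JAG1, JAG2 and HES1 in guide 1 cells (background 11.1%), LFNG in guide 2 cells (7.87%), NOTCH3 and LFNG in double-guide cells (4.32%) and NOTCH3 in parental cells (9.19%) against the empty vector. NOTCH2, the most abundant receptor RNA, and HEY1 showed no such separation from the empty vector in any line. Guide 2 cells were split: replicate 2 carried JAG1, HES1, DLL1, JAG2 and NOTCH1 at the highest level of all 15 libraries, while replicates 1 and 3 were close to the guide 1 cells. Because these are bulk libraries, fewer cells of a type and less RNA per cell cannot be told apart.

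**Figure D1:**
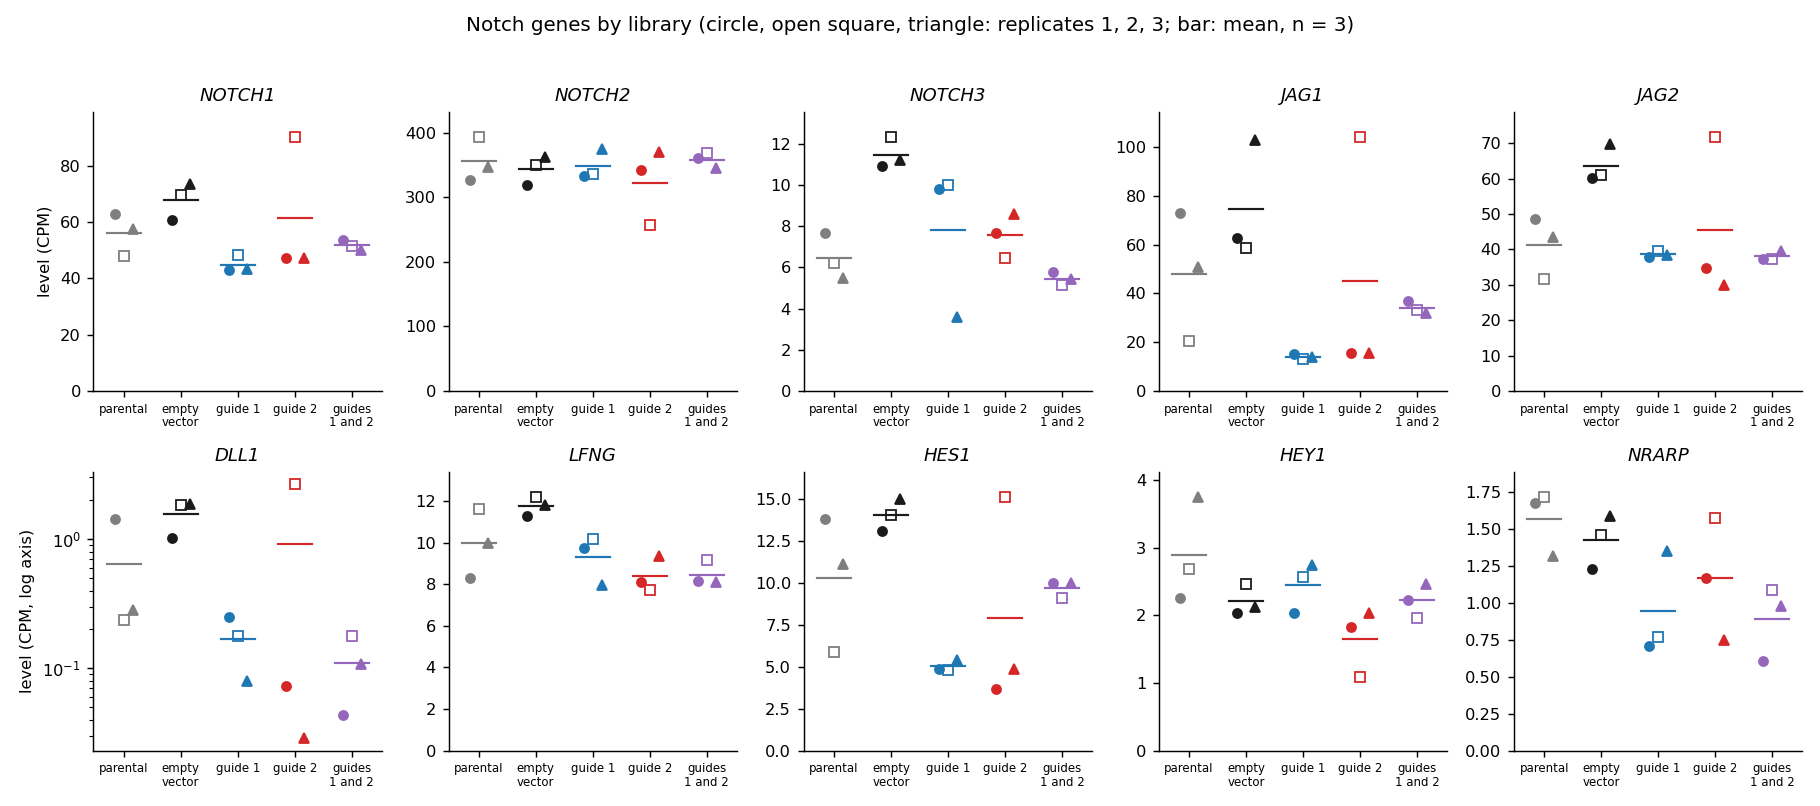
Level of each of the 10 Notch genes in every library, in CPM (linear axes from 0, except DLL1 on a log axis). Circles, open squares and triangles are replicates 1, 2 and 3 of a genotype and the bar is their mean (n = 3); guide 2 replicate 2 (red open square) sits apart from the other guide 2 libraries for NOTCH1 (90.1 against 47.1 and 47.4 CPM), JAG1, JAG2, DLL1 and HES1.

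Among the receptors, NOTCH1 (ENSG00000148400, chr9:136494433-136545786, minus strand, GRCh38) is a broadly expressed receptor of epithelia. It stood at 62.7, 48.1 and 57.5 CPM in parental replicates 1, 2 and 3 and at 60.6, 69.6 and 73.7 CPM in the empty-vector libraries. In edited cells it was at 43.0, 48.4 and 43.4 CPM with guide 1, 47.1, 90.1 and 47.4 CPM with guide 2, and 53.7, 51.6 and 50.2 CPM with guides 1 and 2. All guide 1 and all double-guide libraries lay below the 3 empty-vector libraries, and guide 2 replicate 2 lay above all others. The log2 difference from the empty vector was -0.61 (SE 0.201, edgeR adjusted p = 0.0978) for guide 1, -0.16 (0.2, 0.722) for guide 2 and -0.42 (0.201, 0.387) for both guides, so none passed.

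NOTCH2 (ENSG00000134250, chr1:119911553-120069626, minus strand) was the steadiest of the 10. It ranged from 327 to 393 CPM in parental, 319 to 362 in empty-vector, 333 to 375 in guide 1, 257 to 370 in guide 2 and 346 to 368 CPM in double-guide libraries. The genotypes overlapped throughout, and the 257 CPM of guide 2 replicate 2 was the lowest value, the reverse of its place for NOTCH1. The highest library exceeded the lowest 1.53 times, and the log2 difference from the empty vector lay between -0.1 and 0.04 in the 3 lines (SE 0.121 each). NOTCH2 has near-identical copies in the NOTCH2NL genes, of which NOTCH2NLC was at 0.59 to 1.32 CPM and the others at no more than 0.203 CPM, and reads may have been divided among them.

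NOTCH3 (ENSG00000074181, chr19:15159038-15200981, minus strand), best known from mural cells of blood vessels, was far lower. Its levels were 7.68, 6.2 and 5.46 CPM in parental libraries against 10.9, 12.3 and 11.2 CPM with the empty vector. Edited cells had 9.8, 10.0 and 3.59 CPM with guide 1, 7.64, 6.43 and 8.6 CPM with guide 2, and 5.77, 5.15 and 5.42 CPM with both guides. Every one of the other 12 libraries lay below the 3 empty-vector libraries, the parental ones included, and guide 1 replicate 3 was the lowest of all. The log2 difference from the empty vector was -1.10 (SE 0.295, edgeR adjusted p = 0.099) in double-guide cells and -0.86 (SE 0.293, adjusted p = 0.116) in parental cells. Without guide 1 replicate 3, NOTCH3 passed in double-guide cells (-1.09, edgeR adjusted p = 0.003, background 3.37% of all tested genes), guide 2 cells (-0.62, 0.0243, background 6.10%) and parental cells (-0.86, 0.00464, background 7.22%) against the empty vector. In that fit NOTCH3 also passed in guide 1 against parental cells (background 7.64%), with guide 1 higher (9.8 and 10.0 against 5.46 to 7.68 CPM). It was also called in double-guide against guide 1 cells (4.61%), with double-guide lower, and among the 5 genotypes (9.94%).

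The ligand JAG1 (ENSG00000101384, chr20:10637684-10673999, minus strand) encodes a Jagged-type ligand that is itself known as a Notch-responsive gene in some tissues. It was at 72.9, 20.4 and 50.7 CPM in parental replicates 1, 2 and 3 and 62.7, 58.6 and 103 CPM in empty-vector cells. Guide 1 cells had 15.0, 13.3 and 14.1 CPM, guide 2 cells 15.7, 104 and 15.5 CPM, and double-guide cells 36.8, 33.1 and 31.8 CPM. The guide 1 libraries were the lowest 3 of all, with guide 2 replicates 1 and 3 just above them, and double-guide cells lay between these and the empty vector without overlap on either side. Parental replicate 2 lay below the double-guide cells, and guide 2 replicate 2 was as high as the highest empty-vector library.

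In guide 1 cells JAG1 fell by 2.42 on the log2 scale against the empty vector (SE 0.651, edgeR adjusted p = 0.0471), from a mean of 74.7 ± 24.4 to 14.1 ± 0.84 CPM (SD, n = 3). With the replicate number as a block over all 15 libraries, the value was -2.44 and the edgeR adjusted p = 0.0907. Equal numbers deviated together in this pair of genotypes alone of the 10 pairs, so that fit is not a paired test of these groups. Leaving out 1 library at a time, the call held without parental replicate 2 (adjusted p = 0.0378), guide 2 replicate 1 (0.0294), guide 2 replicate 2 (0.000503) or guide 2 replicate 3 (0.0275), and was lost in the other 11 fits (0.0509 to 0.181). JAG1 differences from the empty vector were -0.76 (SE 0.619, adjusted p = 0.561) in guide 2 and -1.17 (SE 0.625, adjusted p = 0.45) in double-guide cells. JAG1 overlaps the antisense gene AL050403.2, whose reads could not be told apart without strand.

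JAG2 (ENSG00000184916, chr14:105140981-105168824, minus strand), the second Jagged ligand, had a narrower range. It was at 48.5, 31.7 and 43.4 CPM in parental and 60.1, 61.0 and 69.8 CPM in empty-vector libraries. Guide 1 cells had 37.8, 39.5 and 38.5 CPM, guide 2 cells 34.8, 71.7 and 29.9 CPM, and double-guide cells 37.4, 37.3 and 39.6 CPM. As for NOTCH3, parental libraries also lay below the empty vector without overlap, while the guide 1 and double-guide libraries sat inside the parental range. Log2 differences from the empty vector were -0.73 (SE 0.252, edgeR adjusted p = 0.109) for guide 1, -0.5 (0.251, 0.304) for guide 2, -0.76 (0.252, 0.177) for both guides and -0.66 (0.252, 0.162) for parental cells. JAG2 shares exon sequence on its own strand with AL512356.1.

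DLL1 (ENSG00000198719, chr6:170282206-170306565, minus strand), a Delta-like ligand, was the rarest member and rests on few reads. It had 81, 15 and 13 counts in parental libraries and 58, 99 and 101 counts with the empty vector. Edited cells had 13, 14 and 5 counts with guide 1, 4, 147 and 2 counts with guide 2, and 2, 10 and 6 counts with both guides. In CPM that is 1.02 to 1.88 with the empty vector, at most 0.249 in guide 1 and 0.178 in double-guide cells, and 2.66 in guide 2 replicate 2. The log2 differences from the empty vector were wide in guide 1 and double-guide cells, and their errors were large: -3.24 (SE 1.23, edgeR adjusted p = 0.145) for guide 1, -0.81 (1.07, 0.743) for guide 2 and -3.81 (1.31, 0.193) for both guides.

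LFNG (ENSG00000106003, chr7:2512529-2529177, plus strand) encodes lunatic fringe, which adds sugars to Notch receptors and so tunes which ligands they answer. Its levels were 8.31, 11.6 and 10.0 CPM in parental and 11.3, 12.2 and 11.8 CPM in empty-vector cells. They were 9.75, 10.2 and 7.96 CPM with guide 1, 8.09, 7.7 and 9.35 CPM with guide 2, and 8.15, 9.15 and 8.1 CPM with both guides. All 9 edited libraries lay below the 3 empty-vector libraries but overlapped the parental ones, and guide 2 replicate 2 was here the lowest library of all. The log2 difference from the empty vector was -0.35 (SE 0.138, edgeR adjusted p = 0.162) for guide 1, -0.5 (0.138, 0.0643) for guide 2 and -0.49 (0.138, 0.11) for both guides.

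Of the targets, HES1 (ENSG00000114315, chr3:194136145-194138732, plus strand) encodes a transcriptional repressor that Notch induces directly; its promoter window is the one with 2 RBPJ core matches. It was at 13.8, 5.87 and 11.1 CPM in parental and 13.1, 14.0 and 15.0 CPM in empty-vector libraries. Guide 1 cells had 4.88, 4.81 and 5.38 CPM, guide 2 cells 3.69, 15.1 and 4.83 CPM, and double-guide cells 9.99, 9.07 and 9.99 CPM. The order of the libraries was close to that of JAG1: guide 1 and guide 2 replicates 1 and 3 at the bottom, double-guide cells between, and parental replicate 2 low among the controls. The log2 difference from the empty vector was -1.49 (SE 0.423, edgeR adjusted p = 0.0564) for guide 1, -0.86 (0.416, 0.29) for guide 2 and -0.56 (0.414, 0.626) for both guides. The epithelial adhesion sums rank the same libraries high and low, and their part in the HES1 and JAG1 levels was not tested.

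HEY1 (ENSG00000164683, chr8:79764010-79767863, minus strand), another Notch-induced repressor, did not follow HES1. It was at 2.26, 2.68 and 3.75 CPM in parental and 2.03, 2.47 and 2.13 CPM in empty-vector cells. It was at 2.03, 2.56 and 2.74 CPM with guide 1, 1.82, 1.09 and 2.04 CPM with guide 2, and 2.23, 1.96 and 2.47 CPM with both guides. Guide 2 libraries were the lowest as a group and lay below all parental ones (log2 difference -0.78, SE 0.247, edgeR adjusted p = 0.419), and guide 2 replicate 2 was the lowest of the 15 where for HES1 it was the highest.

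NRARP (ENSG00000198435, chr9:137300482-137302251, minus strand) encodes an ankyrin-repeat protein that Notch induces and that dampens the pathway in turn. Levels were 1.68, 1.72 and 1.32 CPM in parental and 1.23, 1.46 and 1.59 CPM in empty-vector cells. Edited cells had 0.708, 0.772 and 1.35 CPM with guide 1, 1.17, 1.58 and 0.752 CPM with guide 2, and 0.607, 1.09 and 0.983 CPM with both guides. The double-guide libraries lay below all 6 controls, while the other 2 lines overlapped them. Against the empty vector the double-guide difference was -0.69 (SE 0.319, edgeR adjusted p = 0.358) and against parental cells -0.81 (SE 0.318, adjusted p = 0.404).

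**Figure D2:**
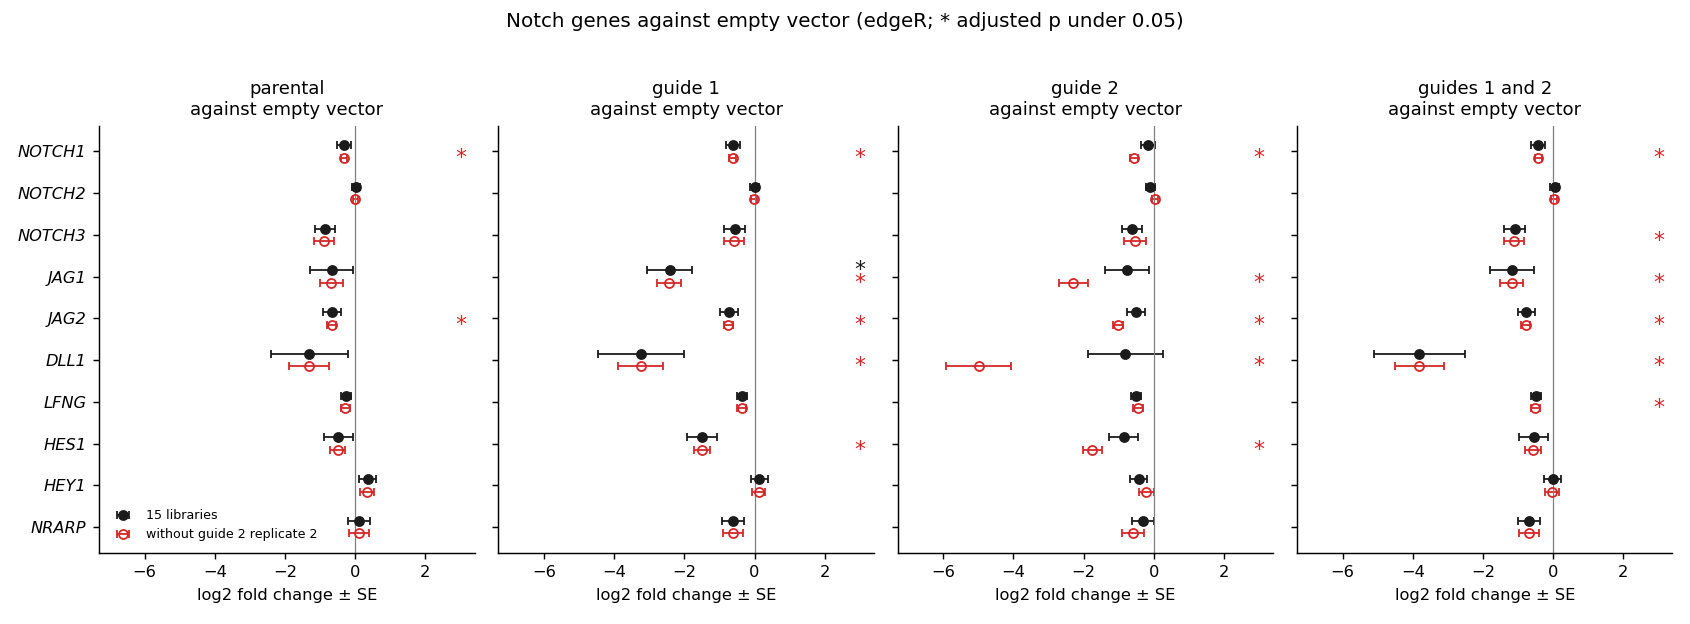
log2 fold change (± SE, edgeR) of each Notch gene in parental, guide 1, guide 2 and double-guide cells against the empty vector, with all 15 libraries (black) and without guide 2 replicate 2 (red open circles); an asterisk marks an adjusted p under 0.05. With all libraries the single call is JAG1 in guide 1 cells (-2.42). Without that library 5, 5 and 6 of the 10 genes pass in guide 1, guide 2 and double-guide cells. Those fits called 18.1%, 14.5% and 6.70% of all tested genes. Guide 2 replicate 2 held the highest level of the 15 libraries for the 5 genes then called in guide 2 cells.

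Counted together, 1 of the 10 genes (JAG1, lower) passed in guide 1 against the empty vector, where 5.88% of all tested genes did and 4.57% were lower. DESeq2 called 4 and voom 7 there, out of fits that called 11.1% and 42.5% of all genes. The edgeR test called 0 of 10 in guide 2 cells (background 3.94%), with 1 gene at an unadjusted p under 0.05, and DESeq2 called 1 (background 7.87%) and voom 7 (33.2%). It called 0 of 10 in double-guide cells (background 0.962%), with 4 at an unadjusted p under 0.05, and DESeq2 called 2 (background 4.32%) and voom 8 (26.7%). Parental against empty-vector cells also gave 0 of 10 by edgeR (background 4.37%), with 2 at an unadjusted p under 0.05, and DESeq2 called 1 (background 9.19%) and voom 7 (36.3%). These 4 comparisons share the same 3 empty-vector libraries, so what they have in common is not independent. The median log2 difference of the 10 genes was -0.61, -0.5, -0.62 and -0.4 in guide 1, guide 2, double-guide and parental cells, beside medians of 0.022, 0.034, -0.001 and 0.011 over all tested genes.

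Range by range, 7 of the 10 genes had all guide 1 libraries below all empty-vector libraries (NOTCH1, NOTCH3, JAG1, JAG2, DLL1, LFNG and HES1), as 18.1% of all tested genes did. In double-guide cells 8 did, these 7 and NRARP (background 17.2%), and in guide 2 cells 2 did, NOTCH3 and LFNG (background 10.9%). Parental cells lay below the empty vector for NOTCH3 and JAG2 (background 14.1%). No member lay wholly above the empty vector in any of the 4 comparisons.

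Against parental cells the edgeR test called 0 of 10 in guide 1 (background 0.149%), guide 2 (0.0516%) and double-guide cells (0.195%). Unadjusted p-values below 0.05 numbered 3, 1 and 1, while DESeq2 called 0 in each (backgrounds 3.76%, 0.791% and 2.10%) and voom 6, 6 and 3 (52.9%, 32.5% and 21.3%). Libraries did not overlap for JAG1 and HES1 in guide 1 cells (background 12.8%), HEY1 in guide 2 cells (5.56%) and DLL1 and NRARP in double-guide cells (11.5%), all lower than parental. The JAG1 difference of guide 1 from parental cells was -1.75 (SE 0.638, edgeR adjusted p = 0.195), that of HES1 -1.01 (SE 0.42, adjusted p = 0.224). The medians of the 10 genes were -0.26, -0.1 and -0.23, beside -0.005, 0.022 and -0.02 over all genes.

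Between the edited lines, edgeR called 0 of 10 for guide 1 against guide 2 (background 0.0401%), double-guide against guide 1 (0.275%) and double-guide against guide 2 (0.149%). Here 3, 1 and 1 genes had an unadjusted p below 0.05, while DESeq2 called 0 in each (backgrounds 1.17%, 2.20% and 0.859%) and voom 0, 5 and 3 (20.2%, 46.5% and 15.2%). JAG1, NOTCH1 and HES1 were higher in every double-guide than in every guide 1 library (background 15.3%), with log2 differences of 1.25 (SE 0.631, edgeR adjusted p = 0.412), 0.19 (0.201, 0.685) and 0.94 (0.42, 0.371). JAG1 was lower in every guide 1 than every guide 2 library (background 5.91%), and NOTCH3 lower in every double-guide than every guide 2 library (4.23%).

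Taking the 3 edited lines against both controls, edgeR called 0 of 10 (background 1.51%), with 5 genes at an unadjusted p under 0.05, and DESeq2 called 1 (background 5.32%) and voom 8 (42.0%). The median was -0.33, beside 0.01 over all genes, and the lowest adjusted p was 0.104, for LFNG (-0.31, SE 0.0885). For none of the 10 did the 9 edited libraries all lie below or all above the 6 controls, whereas 0.183% of all tested genes lay wholly below. The test for any difference among the 5 genotypes called 0 of 10 in edgeR (background 4.30%), with 6 at an unadjusted p under 0.05, and DESeq2 called 2 (background 15.3%) and voom 9 (70.9%). When the genotypes were ordered by mean level, the empty vector stood first for NOTCH1, NOTCH3, JAG1, JAG2, DLL1, LFNG and HES1 and parental cells for HEY1 and NRARP. None of the 40 pairs of neighbouring genotypes passed the test (lowest edgeR adjusted p = 0.285).

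Without guide 2 replicate 2 the same model gave smaller standard errors (0.345 in place of 0.651 for JAG1 in guide 1 cells) and called more genes in all. Members called against the empty vector were 5 in guide 1 cells (NOTCH1, JAG1, JAG2, DLL1 and HES1; background 18.1%), the same 5 by name in guide 2 cells (14.5%), 6 in double-guide cells (NOTCH1, NOTCH3, JAG1, JAG2, DLL1 and LFNG; 6.70%) and 2 in parental cells (NOTCH1 and JAG2; 13.9%), all lower. For the 5 genes called in guide 2 cells, the library left out held the highest level of all 15, so its removal lowers guide 2 by construction. Guide 2 then rests on replicates 1 and 3 alone. In guide 2 cells JAG1 fell by 2.29 (SE 0.4, edgeR adjusted p = 0.00252), HES1 by 1.75 (SE 0.267, adjusted p = 0.00118) and JAG2 by 1.01 (SE 0.145, adjusted p = 0.000881) on the log2 scale. Double-guide cells had smaller values for JAG1 (-1.18, SE 0.33, adjusted p = 0.0496) and for HES1 (-0.57, SE 0.222, adjusted p = 0.149). The difference between double-guide and guide 1 cells itself was 0.93 for HES1 (SE 0.227, edgeR adjusted p = 0.0346) and 1.25 for JAG1 (SE 0.336, adjusted p = 0.0516), in a comparison that called 4.55% of all genes.

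Against parental cells, without that library, JAG1 and HES1 fell in guide 1 (-1.74 and -1.01, edgeR adjusted p = 0.00863 and 0.0155; background 14.5%) and in guide 2 cells (-1.61 and -1.25, adjusted p = 0.0314 and 0.0173; background 5.96%). DLL1 joined them in guide 2 cells (-3.67, edgeR adjusted p = 0.0412, where the value with all libraries was 0.49), and 0 of 10 passed in double-guide cells (background 2.62%). Edited lines against both controls gave 7 lower genes (background 18.0%): JAG1 (-1.62), DLL1 (-3.36), HES1 (-1.03), NRARP (-0.69), JAG2 (-0.51), NOTCH1 (-0.37) and LFNG (-0.3). For all of these but LFNG, the library left out held the highest level of the edited libraries. Its removal lowers guide 2 and the edited lines for those genes by construction, so their guide 2 and edited-line calls add no support for a fall. Leaving out parental replicate 2 as well, JAG1 was lower in edited lines by 1.80 and HES1 by 1.16 on the log2 scale (edgeR adjusted p = 9.66e-07 and 8.67e-07), LFNG no longer passed (adjusted p = 0.0509), and 6 of the 10 were called (background 27.5%). Guide 2 replicate 2 held the highest JAG1 and HES1 of the edited libraries (104 and 15.1 CPM). Parental replicate 2 held the lowest of the controls (20.4 and 5.87 CPM). Leaving out both widens the gap by construction, so these p-values add no support for it.

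**Figure D3:**
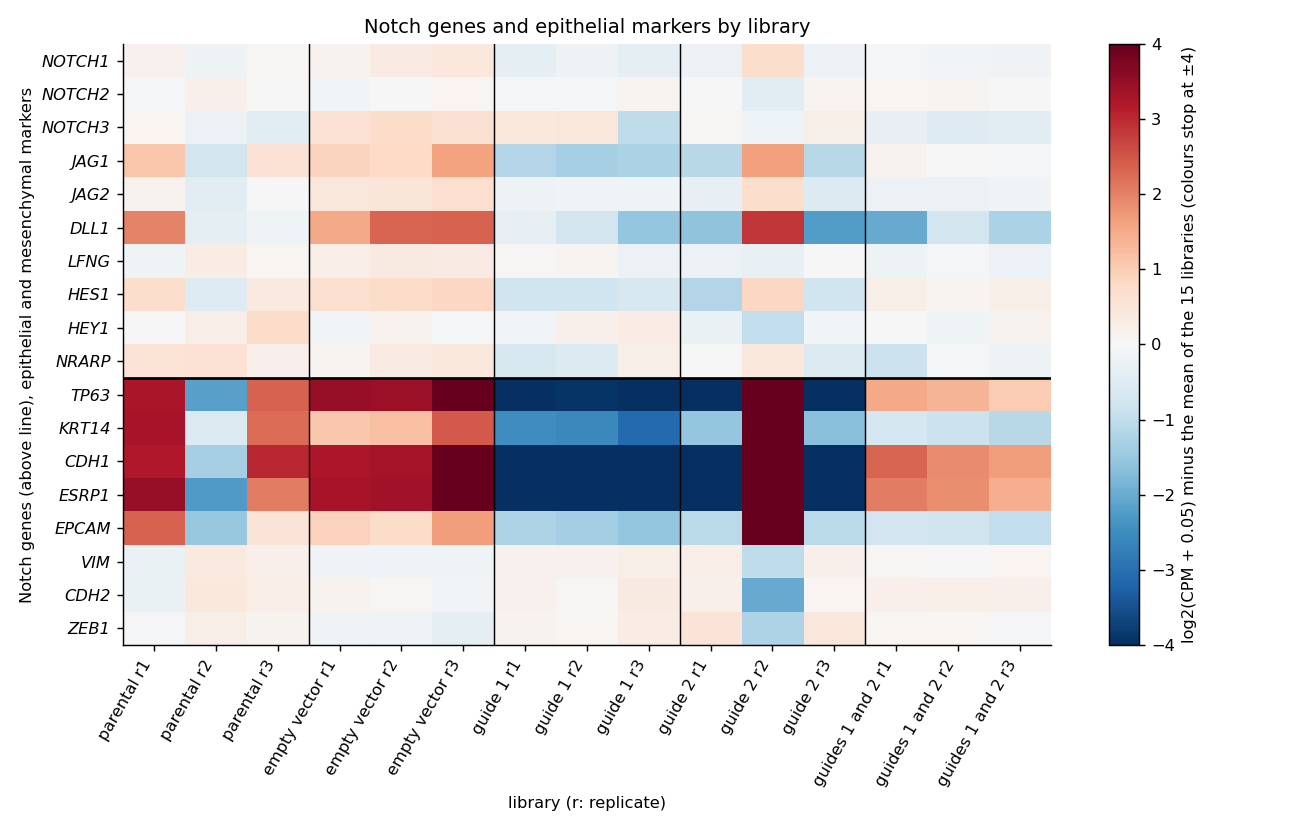
Heat map of the 10 Notch genes (above the line) and 8 epithelial and mesenchymal markers (below) in the 15 libraries; colour is log2(CPM + 0.05) minus the mean of that gene over the libraries, with colours stopping at ±4. JAG1, DLL1, HES1, TP63, CDH1 and ESRP1 are all red in the empty-vector libraries, parental replicate 1 and guide 2 replicate 2, and blue or pale in guide 1, in guide 2 replicates 1 and 3 and in parental replicate 2. In double-guide libraries TP63, CDH1 and ESRP1 are red while DLL1 is blue and JAG1 and HES1 are pale, and DLL1 is also pale in parental replicate 3. The other epithelial markers shown, KRT14 and EPCAM, are on the blue side in double-guide libraries. They stood there at 26 to 34.6 and 2.84 to 3.32 CPM, against 118 to 309 and 9.42 to 18.2 CPM with the empty vector.

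The genes whose log2 CPM followed each member most closely over the 15 libraries were found next. For HES1 these were TP63, the basal transcription factor (Pearson r = 0.988 over 15 libraries, 0.987 without guide 2 replicate 2), and MAP7 (0.986 and 0.985). TP63 itself was at 37.4, 0.815 and 19.9 CPM in parental, 43.1, 41.4 and 68 CPM in empty-vector, at most 0.203 CPM in guide 1, 0.0542, 75.8 and 0.0723 CPM in guide 2, and 7.83 to 11 CPM in double-guide libraries. JAG1 was most like FRMD4B (0.992 and 0.99) and ANXA8L1 (0.991 and 0.991), the latter 1 of several near-identical annexin genes. NOTCH1 was most like PLEKHA1 (0.971 and 0.96) and DAB2IP (0.963 and 0.976), JAG2 like PRKX (0.973 and 0.965) and GSDME (0.972 and 0.964). DLL1 followed OSBPL2 (0.938 and 0.923) and EXT2 (0.924 and 0.908).

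The remaining members were read in the same way. NOTCH3 was most like NFE2L2 (0.938 and 0.939) and SLC22A23 (0.918 and 0.933), LFNG like DCAF6 (0.941 and 0.933) and SORT1 (0.892 and 0.888), and NRARP like MARCKSL1 (0.832 and 0.834) and CILK1 (0.832 and 0.821). For NOTCH2 the likeness to C22orf46P (0.949 and 0.856) and NCOA1 (0.933 and 0.782) dropped without guide 2 replicate 2. The same held for HEY1 with ENSG00000261167 (0.883 and 0.714) and SMARCA1 (0.87 and 0.662). These coefficients describe genes measured in the same libraries, which share depth and genotype, and the points fall into high and low clusters; they carry no test.

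**Figure D4:**
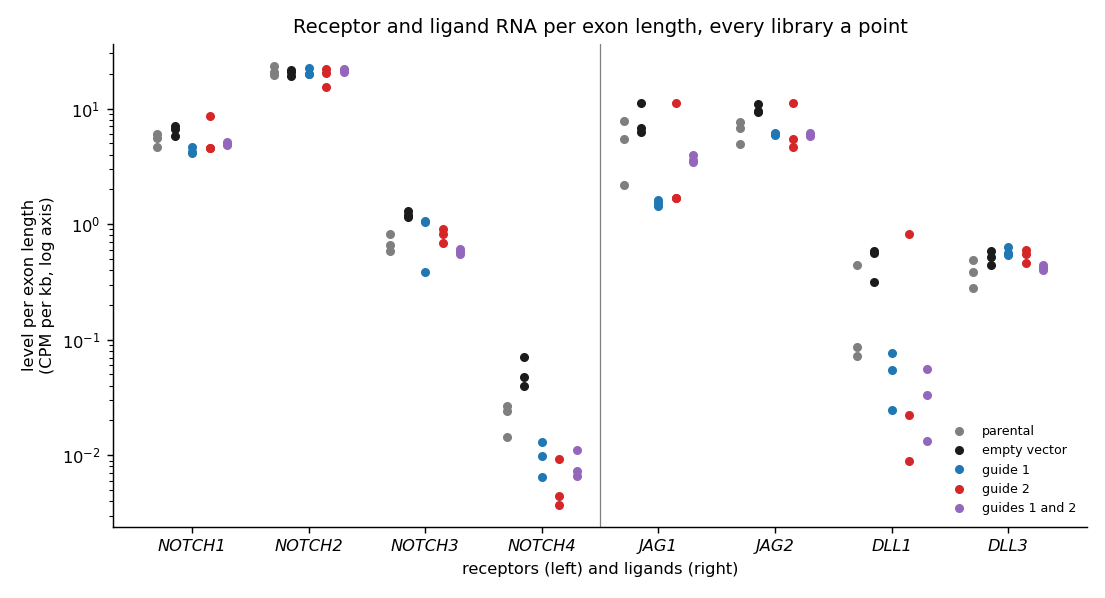
Level per exon length (CPM per kb of annotated exon, log axis) of 4 receptors and 4 ligands in every library, coloured by genotype. NOTCH2 is the highest receptor in all libraries (mean 20.6 CPM per kb) and NOTCH4 the lowest, and JAG1 is below JAG2 in all edited libraries and in 4 of 6 controls, though nearly level with it in guide 2 replicate 2.

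Levels of different genes were compared per kb of exon. NOTCH2 averaged 20.6 CPM per kb over the 15 libraries, NOTCH1 5.44, NOTCH3 0.825 and the fourth receptor, NOTCH4, 0.0196. As a share of the summed receptor level per kb, NOTCH2 made up 62 to 83% (median 78.8%) and NOTCH1 15.6 to 35.2% (median 18.6%); guide 2 replicate 2 is the library with the lowest NOTCH2 and the highest NOTCH1 share. Among ligands JAG2 averaged 7.10 CPM per kb, JAG1 4.64, DLL3 0.489 and DLL1 0.212. JAG2 held 47 to 75.1% of the summed ligand level (median 59%) and JAG1 17.4 to 48.5% (median 36.1%). LFNG averaged 2.80 CPM per kb, and of the targets HES1 averaged 4.55, HEY1 0.706 and NRARP 0.678.

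The pathway around these genes was read from a list of 40 further genes, of which 34 could be tested; DLL4, NEURL1, DTX1, HES5, HEY2 and HEYL were too low. In guide 1 against the empty vector 4 of 34 fell and 0 rose (background 5.88%): NOTCH4, the protease ADAM17 (-0.46, SE 0.0888, edgeR adjusted p = 0.0129), the endocytic Notch inhibitor NUMB (-0.23, SE 0.0534, adjusted p = 0.0249) and HES4 (-0.63, SE 0.155, adjusted p = 0.0324). In guide 2 cells (background 3.94%) 3 fell, NOTCH4, the protease ADAM10 (-0.36, SE 0.079, adjusted p = 0.0247) and NUMB (-0.27, SE 0.0534, adjusted p = 0.0158), and 1 rose, POFUT1, which adds fucose to Notch receptors (0.28, SE 0.0634, adjusted p = 0.0277). In double-guide cells NOTCH4 alone fell (background 0.962%), and POFUT1 alone differed between parental and empty-vector cells (0.28, SE 0.0634, adjusted p = 0.0287; background 4.37%). The replicate block ended the calls of NUMB (edgeR adjusted p = 0.0615) and HES4 (0.0709) in guide 1 cells and of POFUT1 in guide 2 (0.0611) and parental cells (0.0613). POFUT1 passed in 11 of 22 alternative settings in each of these comparisons (adjusted p up to 0.199 and 0.139). The median over the 34 genes was -0.05, -0.05, -0.06 and -0.12 in the 4 comparisons with the empty vector. In guide 1, guide 2, double-guide and parental cells DESeq2 called 9, 6, 3 and 4 of the 34 (backgrounds 11.1%, 7.87%, 4.32% and 9.19%). Of those genes 1, 1, 0 and 2 were higher than with the empty vector. Voom called 24, 13, 9 and 14 (42.5%, 33.2%, 26.7% and 36.3%), of which 9, 2, 2 and 5 were higher.

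NOTCH4 fell in each edited line relative to empty-vector cells, by 2.39 (SE 0.398, edgeR adjusted p = 0.00668), 3.16 (SE 0.433, adjusted p = 0.00292) and 2.64 (SE 0.418, adjusted p = 0.0122) on the log2 scale in guide 1, guide 2 and double-guide cells. The guide 1 call held in all 22 alternative settings and the guide 2 call in 21, all but the fit of the compared groups alone (edgeR adjusted p = 0.0803). The double-guide call held in 18 of 22 and was lost without double-guide replicate 1 (0.0926), 2 (0.0569) or 3 (0.0901) or empty-vector replicate 3 (0.0699). NOTCH4 was very low everywhere: 8, 15 and 12 counts in parental and 22, 25 and 37 in empty-vector libraries, against 5, 10 and 4 with guide 1, 5, 2 and 3 with guide 2 and 3, 6 and 4 with both guides. In CPM all 9 edited libraries (0.0362 to 0.127) lay below all 6 controls (0.14 to 0.69), guide 2 replicate 2 being the lowest, and the difference of edited lines from both controls was -2.08 (SE 0.268, edgeR adjusted p = 0.00428). Against parental cells alone it did not pass in any line (-1.09, -1.85 and -1.33; adjusted p = 0.209, 0.293 and 0.286). NOTCH4 shares exon sequence with GPSM3 on the same strand, which was at 0.344 to 1.91 CPM, so its few reads are uncertain.

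ADAM10, the main protease for the first cut of ligand-bound receptors, was at 182, 183 and 194 CPM in parental and 194, 180 and 197 CPM in empty-vector libraries. It was at 159, 144 and 173 CPM with guide 1, 148, 145 and 156 CPM with guide 2, and 162, 169 and 144 CPM with both guides. These 9 edited libraries also lay below all 6 controls; ADAM10 and NOTCH4 were the 2 of 34 that did (background 0.183%). In edited lines against both controls the log2 difference of ADAM10 was -0.28 (SE 0.0507, edgeR adjusted p = 0.0202), that of ADAM17 -0.27 (SE 0.0569, adjusted p = 0.0368) and that of DTX3, of the Deltex family, -0.71 (SE 0.158, adjusted p = 0.0455). With NOTCH4 that makes 4 of 34 lower and 0 higher (background 1.51%), with a median of -0.06 beside 0.01 over all genes. In the same comparison DESeq2 called 5, with 0 higher (5.32%), and voom called 24, with 9 higher (42.0%). NOTCH4 passed in all 21 alternative settings (adjusted p = 3.55e-06 to 0.0175) and ADAM10 in 18 of 21 (up to 0.0776, without parental replicate 3), while ADAM17 passed in 7 of 21 and DTX3 in 8 of 21, neither of them with the replicate block (0.09 and 0.0855). RBPJ, which carries the signal at DNA, was at 103 to 149 CPM and did not pass in any comparison in the edgeR model of 15 libraries. Its mean was 144 CPM in parental and 108 CPM in empty-vector cells (log2 difference 0.38, SE 0.106, edgeR adjusted p = 0.0594). That difference was called by DESeq2 (background 9.19%), by voom (36.3%) and in edgeR without guide 2 replicate 2 (13.9%).

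Against parental cells edgeR called 0 of 34 in each line (backgrounds 0.149%, 0.0516% and 0.195%), with 14, 6 and 2 genes at an unadjusted p under 0.05, and DESeq2 called 1, 0 and 0 (3.76%, 0.791% and 2.10% of all genes) and voom 25, 20 and 9 (52.9%, 32.5% and 21.3%). Between the lines it also called 0 of 34 in each pair (0.0401%, 0.275% and 0.149%), with 6, 5 and 1 at an unadjusted p under 0.05, and DESeq2 called 0, 1 and 0 (1.17%, 2.20% and 0.859%) and voom 6, 18 and 5 (20.2%, 46.5% and 15.2%). The test among 5 genotypes called 4 of 34 (background 4.30%): NOTCH4 (edgeR adjusted p = 0.00364), ADAM17 (0.0424), ADAM10 (0.0446) and NUMB (0.0475). In this test NOTCH4 passed in all 21 alternative settings, ADAM17 in 7, ADAM10 in 6 and NUMB in 6. With the replicate block NOTCH4 alone was called. Outside the naming rule and chosen after its values were seen, MFNG, a fringe enzyme like LFNG, was at 1.83 CPM in guide 2 replicate 2, 0.047 CPM in parental replicate 2 and at most 0.232 CPM in the other 8 edited libraries (edgeR adjusted p = 0.289 among 5 genotypes), an order closer to that of JAG1 than to that of LFNG. DESeq2 (background 11.1%) and voom (42.5%) called MFNG in guide 1 against the empty vector, as did edgeR without guide 2 replicate 2 (18.1%).

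**Figure D5:**
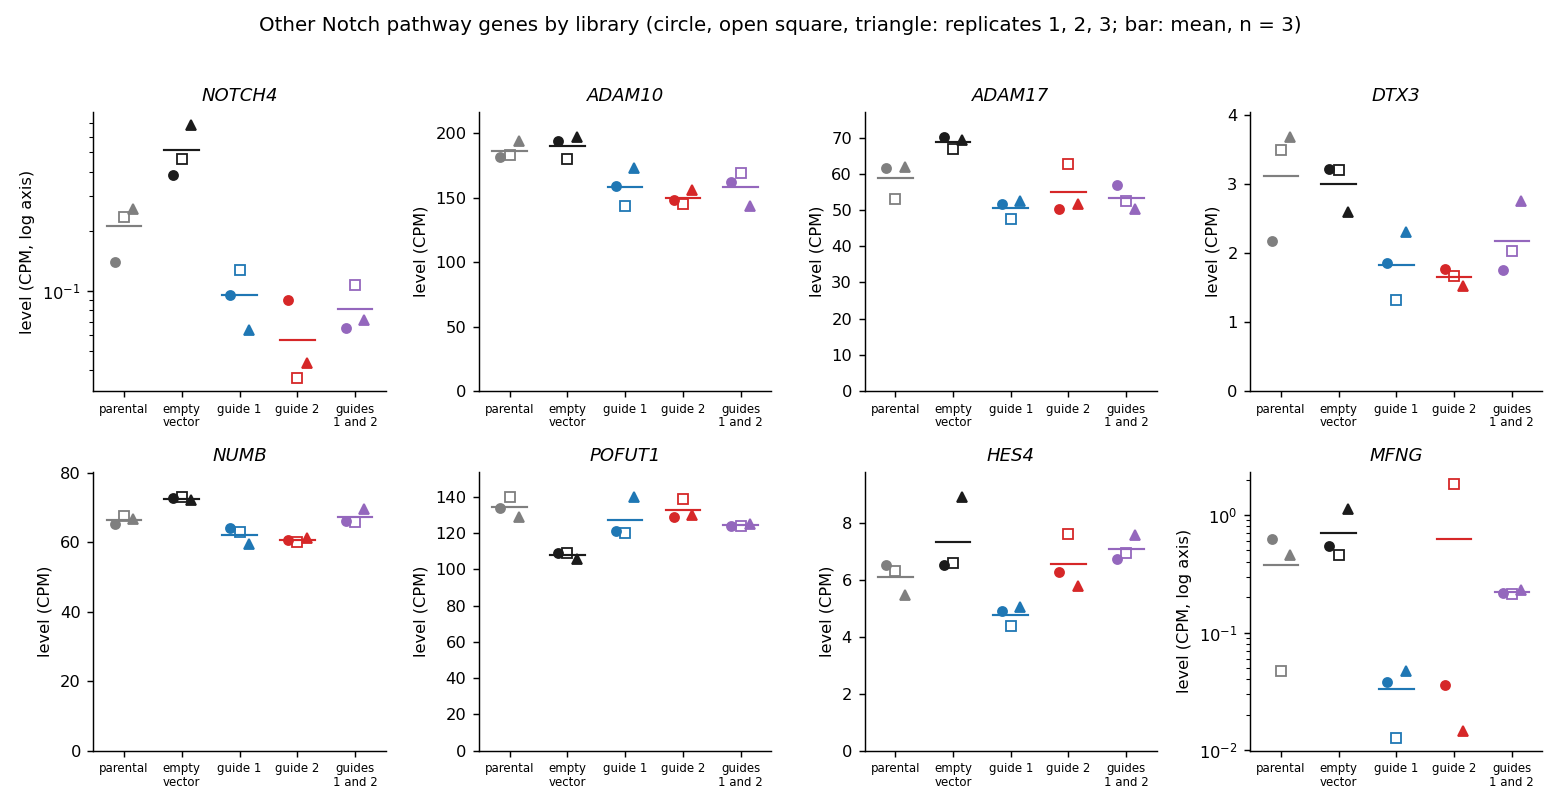
Levels of 8 other Notch pathway genes in every library, in CPM (NOTCH4 and MFNG on log axes, the others from 0), with symbols for replicates and a bar for the mean as for the 10 genes (n = 3). All edited libraries lie below all controls for NOTCH4 and ADAM10; MFNG is not called in any comparison by edgeR with all 15 libraries and is shown for its spread within genotypes.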

How the data were processed

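RNA of 15 MCF-10A libraries was measured by RNA-seq of polyadenylated RNA, with RNeasy purification and a KAPA mRNA HyperPrep kit per the labels. The deposited counts are whole numbers per Ensembl gene, not normalized. The deposited CPM values equal those computed from the counts and the library totals, to within 4.91e-11. Trim Galore 0.6.0, STAR 2.7.8a and GRCh38 are named in the submitters' processing notes; the counting program, annotation and use of strand are not given in the sources used here, so overlapping genes and close copies are uncertain.

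Counts were tested with edgeR 4.0.16 in R 4.3.3: filterByExpr by genotype, TMM scaling, 1 quasi-likelihood group-means model over 15 libraries, two-sided tests, Benjamini-Hochberg adjustment over 17457 genes and a threshold of 0.05. SE is the absolute log2 fold change over the square root of F. P-values measure the spread between the labelled biological replicates. Alternatives were RLE scaling, no filter, a replicate block, DESeq2 1.42.0, voom with sample weights in limma 3.58.1, the compared groups alone, and each library left out. Tests of simulated counts with known changes recovered the direction of every changed gene called. The simulated counts held no library that stood apart, so they do not test how such a library affects the calls.

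Equal replicate numbers deviated together (every correlation over 0.1) for 1 of 10 pairs of genotypes, guide 1 and empty vector (0.136, 0.186 and 0.28); the numbers come from the labels. Libraries of a genotype differed beyond sampling noise in 24.6 to 76.8% of genes, so none was counted as a repeat.

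The 10 genes, the 40 other pathway genes and the marker lists (basal, luminal, epithelial adhesion, mesenchymal, fibroblast, endothelial, leukocyte) were chosen with earlier results of these data known. Named genes are the 10, NF1 as a label check, other pathway genes with an adjusted p under 0.05 in a comparison, and for each of the 10 the 2 non-members with the highest Pearson correlation of TMM log2 CPM (prior count 2, mean log2 CPM at least 1). Positions and exon lengths are from GENCODE on GRCh38, and promoters from RefSeq on GRCh38.p14. Floors of 3 counts reflect counting error alone, because amplified reads lack identifiers of single molecules. Python 3.11.15, numpy 2.4.6, pandas 2.3.3 and matplotlib 3.10.9 were used.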

Additional observations from a re-analysis of the deposited data

Results flagged for a closer look

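NF1, the targeted gene, differed between the edited lines in the direct tests of the same edgeR model. Its log2 fold change was 0.69 for guide 1 against guide 2 (SE 0.088, edgeR adjusted p = 0.0121), with 43.6 to 51.3 CPM in the guide 1 and 27.0 to 31.4 CPM in the guide 2 libraries. For guides 1 and 2 against guide 1 it was -0.76 (SE 0.0882, edgeR adjusted p = 0.00411), with 26.0 to 29.4 CPM in the double-guide libraries. The 3 libraries of each line did not overlap those of guide 1. No Notch gene of the 10 passed in either of these comparisons.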

How the results depend on the processing

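Main values were those of the 15-library edgeR model; counts of the 10 Notch genes depended on the tool and on single libraries. No difference called in that model changed sign in an alternative, but 27 of the 110 differences of the 10 genes did in at least 1, and 4 of these passed there. In guide 2 against parental cells these were DLL1 (0.49 with all libraries, -2.45 by voom, -3.67 without guide 2 replicate 2 and -4.1 without guide 2 replicate 2 and parental replicate 2), JAG2 (0.15, -0.34 by voom and -0.5 without both libraries) and NOTCH1 (0.15 and -0.34 without both). In double-guide against guide 2 cells it was JAG1 (-0.41, 1.1 by voom and 1.12 without both). In guide 1 against the empty vector (main 1) the count was 2 without the filter, 0 with the replicate block, 4 by DESeq2, 7 by voom, 5 with the compared groups alone, 6 without both libraries, and 0 to 5 leaving out 1 library. These fits called 2.76%, 3.25%, 11.1%, 42.5%, 15.8% and 21.7% of all genes. In guide 2 cells (main 0) it was 1 by DESeq2, 7 by voom, 6 without both libraries (7.87%, 33.2% and 17.4% of all genes) and 0 to 5 leaving out 1. In double-guide cells (main 0) it was 2, 8, 7 with the compared groups alone, 7 without both libraries (4.32%, 26.7%, 18.7% and 9.33%) and 0 to 6. In parental against empty-vector cells (main 0) it was 1, 7, 1, 1 (9.19%, 36.3%, 6.85% and 14.6%) and 0 to 2.

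Against parental cells (main 0 each) voom gave 6, 6 and 3 (52.9%, 32.5% and 21.3%) and the fit without both libraries 4, 5 and 2 (28.6%, 17.6% and 5.54%) for guide 1, guide 2 and double-guide cells, with 0 to 2, 0 to 3 and 0 leaving out 1. Double-guide against guide 1 (main 0) gave 5 by voom, 2 with the compared groups alone, 2 without both libraries (46.5%, 7.67% and 8.1%) and 0 to 1. Against guide 2 it gave 3 by voom, 2 without both libraries (15.2% and 3.8%) and 0 to 1. Edited lines against both controls (main 0) gave 1 by DESeq2, 8 by voom, 6 without both libraries (5.32%, 42.0% and 27.5%) and 0 to 7. Any difference (main 0) gave 2, 9, 6 (15.3%, 70.9% and 33.3%) and 0 to 5.

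Removal of guide 2 replicate 2 gave the highest count in each of these ranges. Outside guide 1 against the empty vector, calls were also added without guide 1 replicate 3 or parental replicate 1. The former added NOTCH3 in 6 comparisons and LFNG in guide 2 against the empty vector, the latter 1 call in that comparison. In guide 1 against the empty vector, 0 of 15 fits kept the main count. It was 2 without parental replicate 2, guide 2 replicate 1 or guide 2 replicate 3. Without any other library but guide 2 replicate 2 it was 0. Voom gave guide 2 replicate 2 a weight of 0.052. DESeq2 gave no adjusted p for DLL1. For the 34 other pathway genes, edited lines against controls (main 4) gave 2 with the block, 24 by voom, 17 without both libraries (0.636%, 42.0% and 27.5% of all genes) and 1 to 15 leaving out 1. Any difference (main 4) gave 1 without the filter, 1 with the block, 8 by DESeq2, 31 by voom, 18 without both libraries (2.32%, 1.71%, 15.3%, 70.9% and 33.3%) and 1 to 17.

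Same-numbered libraries had a mean correlation of -0.05 over 30 pairs, and 18 of 60 comparisons matched a library best with its own number. With the replicate block every count of the 10 genes was 0, that of guide 1 against the empty vector included. Depth limits DLL1 and NOTCH4, with as few as 2 counts in a library.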
